A study of Mus musculus with 6 samples.

Results

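The genes described here are 7 early-response transcription factor genes, Egr1, Egr2, Egr3, Nr4a1, Nr4a2, Nr4a3 and Myc. The data on them are every ChIP-seq peak whose nearest gene, in the annotation deposited with the peaks, was 1 of the 7. This gave 124 peaks in 6 peak lists, which merged into 56 regions out of 60856 regions in all. The chromatin came from wild-type (Wt) mouse bone marrow-derived macrophages (BMDMs), from animals of 8-12 weeks on a C57BL/6 background, grown for 6 days with L929 supernatant as the source of M-CSF. Control cells received nothing further, and IL-4 cells received 20 ng/ml IL-4 for 1 h. Antibodies to C/EBPα, IRF8 or JUNB were used in each condition, which made 6 groups of 1 sample each. No group had a replicate, so no test could be made and every difference below compares one sample with another.

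Immediate-early genes are switched on by signals without the need for new protein, and their products are transcription factors that act on later genes. EGR proteins are zinc-finger activators, NR4A proteins are nuclear receptors that act without a known hormone, and MYC drives growth and metabolism. C/EBPα and IRF8 shape the myeloid lineage, whereas JUNB is a subunit of the AP-1 dimer. IL-4 acts through the STAT6 factor and polarizes macrophages toward the alternative state.

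With C/EBPα, 24486 peaks were listed in control cells and 24612 in IL-4 cells. IRF8 gave 37525 and 42076, and JUNB gave 3940 and 2325. The lists give no read numbers, so sequencing depth is unknown. They give a score per peak, which is given below both as deposited and as a percentile within its own list. A choice of 2 library kits is named for the series, without saying which sample used which. All 8 macrophage marker genes had a peak and 5 had one at the promoter, whereas 2 of 4 T cell, 3 of 3 B cell, 2 of 4 neutrophil and 2 of 3 fibroblast markers had a peak, with a promoter peak at 1 neutrophil gene and at none of the others. A peak near a gene is not its expression. In bulk chromatin, fewer bound cells and weaker binding in each cell cannot be told apart.

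The following 200 bp windows show the loci on which the results turn. They are the plus strand of mm10, read from the GRCm38 reference, and each is centred on 1 peak. A region is named by its gene and its deposited distance to the transcription start site (TSS) in bp, with negative values upstream. Capitals mark letters that match, on either strand, AP-1 (TGANTCA), C/EBP (TTGCNNAA), ETS-IRF (GGAANNGAA), interferon-type (GAAANNGAA), PU.1 (GAGGAAG) or a STAT-type pair of TTC and GAA, 3 or 4 bases apart. The PU.1 and ETS-IRF letters can overlap, as they do at Nr4a1. The strongest Myc window and the Egr3 window come from regions that held all 3 factors (the Egr3 window is centred on IRF8 and meets the JUNB peak only at its edge), the Myc +13579 window held no listed peak after IL-4, the Myc -1736 and Egr2 -98397 windows had the highest C/EBPα scores, and the Egr2 -106710 and Nr4a1 -13980 windows had IRF8 scores that moved in opposite directions.
Myc +14415, chr15:61999652-61999851: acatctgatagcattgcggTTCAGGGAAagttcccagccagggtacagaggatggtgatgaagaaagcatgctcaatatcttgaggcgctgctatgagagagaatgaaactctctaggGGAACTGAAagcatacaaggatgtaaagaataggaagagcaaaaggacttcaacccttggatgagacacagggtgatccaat
Myc +13579, chr15:61998821-61999020: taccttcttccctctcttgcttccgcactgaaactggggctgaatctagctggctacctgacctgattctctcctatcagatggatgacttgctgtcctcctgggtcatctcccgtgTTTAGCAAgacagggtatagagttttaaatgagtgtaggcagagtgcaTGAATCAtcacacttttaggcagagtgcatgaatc
Myc -1736, chr15:61983506-61983705: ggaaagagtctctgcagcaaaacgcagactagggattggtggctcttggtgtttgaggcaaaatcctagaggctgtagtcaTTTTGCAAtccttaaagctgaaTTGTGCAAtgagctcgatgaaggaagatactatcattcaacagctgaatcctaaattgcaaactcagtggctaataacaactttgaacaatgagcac
Egr3 -20104, chr14:70057242-70057441: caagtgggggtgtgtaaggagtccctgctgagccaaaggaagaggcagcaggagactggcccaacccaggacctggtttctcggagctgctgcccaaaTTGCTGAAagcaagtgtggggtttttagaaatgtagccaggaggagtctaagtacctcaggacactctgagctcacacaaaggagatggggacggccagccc
Egr2 -98397, chr10:67439376-67439575: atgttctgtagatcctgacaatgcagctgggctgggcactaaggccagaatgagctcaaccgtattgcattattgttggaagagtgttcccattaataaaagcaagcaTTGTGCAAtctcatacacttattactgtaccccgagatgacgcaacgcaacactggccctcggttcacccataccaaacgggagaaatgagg
Egr2 -106710, chr10:67431060-67431259: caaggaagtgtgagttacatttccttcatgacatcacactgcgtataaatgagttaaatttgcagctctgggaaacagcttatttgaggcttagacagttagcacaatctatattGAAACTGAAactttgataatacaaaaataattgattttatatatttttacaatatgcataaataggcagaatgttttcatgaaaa
Nr4a1 -13980, chr15:101252767-101252966: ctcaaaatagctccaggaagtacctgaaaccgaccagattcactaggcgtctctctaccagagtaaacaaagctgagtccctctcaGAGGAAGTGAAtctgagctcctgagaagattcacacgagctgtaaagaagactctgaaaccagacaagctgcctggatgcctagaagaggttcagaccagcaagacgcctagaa
Peak numbers by gene were uneven. Egr2 had 29 peaks over the 6 lists, Egr3 had 26, Myc 21, Nr4a3 20, Nr4a1 13, Egr1 8 and Nr4a2 7. These counts follow the nearest-gene assignment. Kept to 100000 bp, Nr4a3 had 7 peaks and Nr4a2 1, and with every peak within 100000 bp of a TSS of the gene, whatever its nearest gene, Egr2 had 55, Nr4a1 52, Myc 50, Egr3 38, Egr1 22, Nr4a3 16 and Nr4a2 12. Egr2 held 9 IRF8 peaks after IL-4, and 693 of the 13302 genes with an IRF8 peak in that list had more. Nr4a2, by contrast, had no C/EBPα or JUNB peak in either condition. The C/EBPα peaks of the 7 genes sat high in their lists, with a median percentile of 69.5 in control and 70.8 after IL-4. Their IRF8 peaks had medians of 44.6 and 40.9, below the middle of the list, although the strongest of all was an IRF8 peak.

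**Figure D1:**
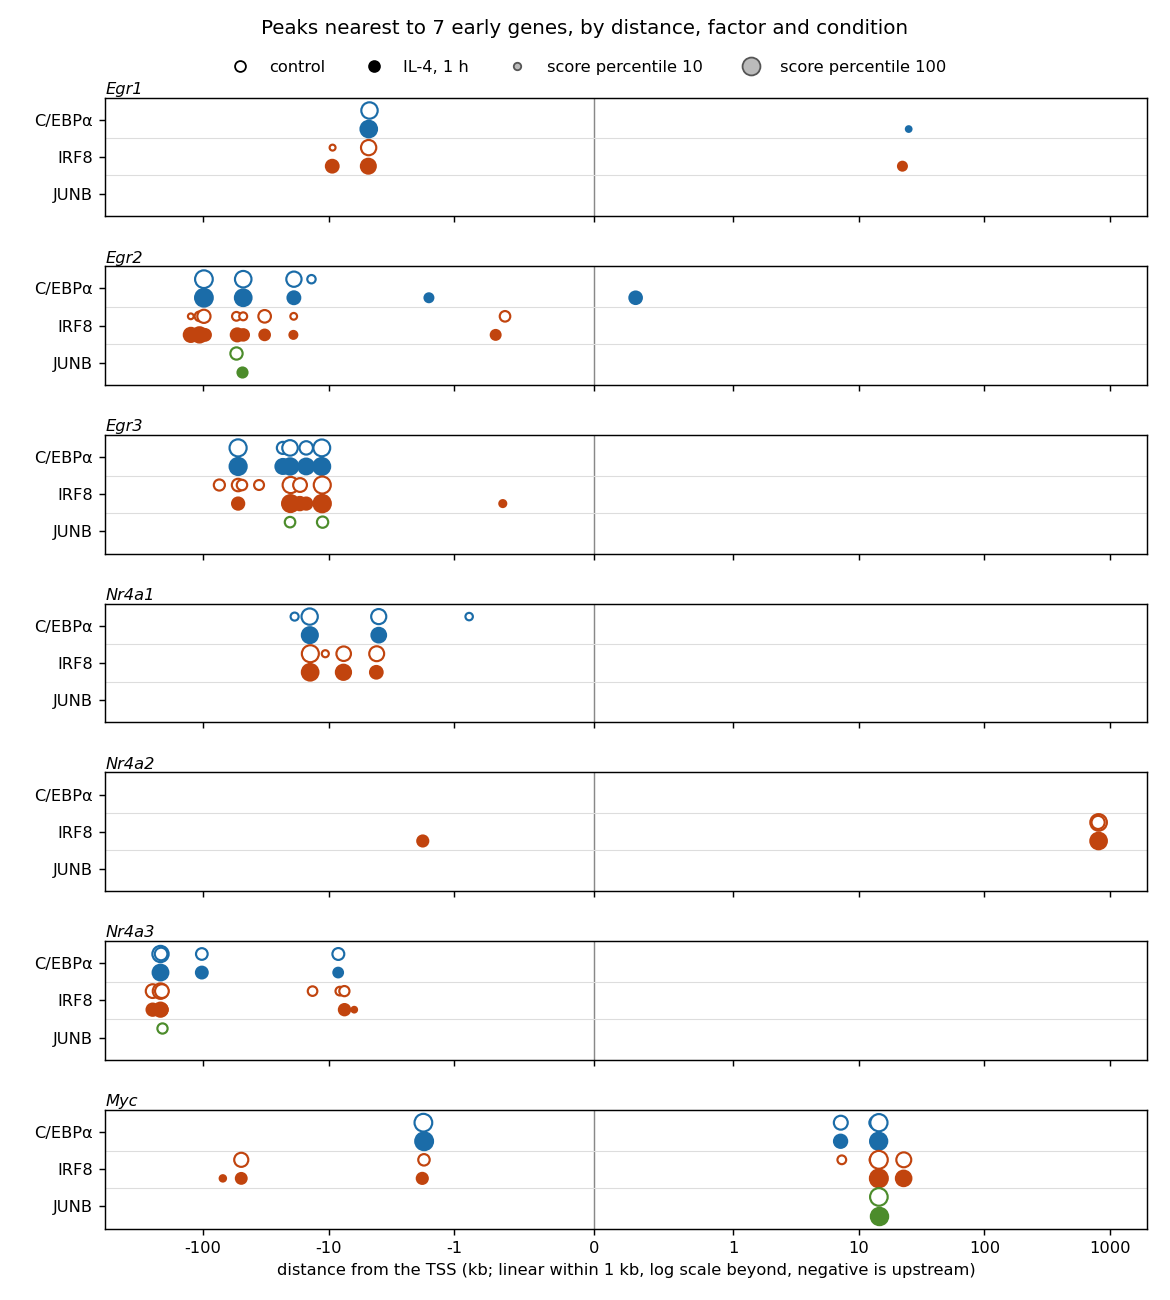
Each circle is a peak placed by its distance from the TSS (x axis, kb, linear within 1 kb and log scale beyond) in a row for each factor, for 7 genes. Open circles are control, filled circles IL-4, and circle area grows with the score percentile within the list. Egr3, Nr4a1 and Nr4a3 had upstream peaks only, and 3 of the 4 Nr4a2 regions lay at or beyond +802595 bp.

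As in the whole lists, most sites lay away from promoters. Of the 56 regions, 46 were upstream of the deposited TSS, 7 of them inside the gene as GENCODE annotates it. Of all 56, 45 lay within 100000 bp, 4 within 1000 bp, and 10 lay on an annotated repeat in at least 1 list. Counted as control peaks of the 7 genes, not regions, 86.4% for C/EBPα and 77.8% for IRF8 lay within 100000 bp. Over all control peaks, 87.8% for C/EBPα and 86.6% for IRF8 did so. At a promoter were 4.5% and 2.8% of the control peaks of the 7 genes, against 6.88% and 7.25% of all control peaks. The share of all regions on a repeat is not given. In GENCODE, the nearest protein-coding TSS belonged to the same gene for 56 of 56 regions. The 11 regions beyond 100000 bp comprised 6 at Nr4a3, 3 at Nr4a2 and 2 at Egr2. Of the control C/EBPα peaks of the 7 genes, 81.8% were annotated intergenic, against 43.0% of all C/EBPα control peaks. For IRF8 in control the shares were 80.6% and 43.0%. The intergenic label follows the deposited gene models. Some of these peaks lie inside genes that GENCODE annotates, as at Nr4a1, and the shares were not recomputed with GENCODE. The upstream regions of Egr3 from -74127 to -20104 bp lay in introns of Pebp4, a neighbouring gene, so assignment to Egr3 rests on the nearest TSS alone. At Nr4a1 the deposited distances refer to an internal start. GENCODE starts Nr4a1 at chr15:101254269, so the regions from -10627 to -893 bp lie inside the gene it annotates, and the region at -13980 bp lies -1494 bp from its nearest GENCODE TSS. At Nr4a3 the GENCODE TSS likewise lies upstream of the deposited one. The Nr4a3 region at -6254 bp, with an IRF8 score of 2.53 after IL-4 only, lies -159 bp from it, and the region at -7474 bp lies -1379 bp from it.

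In the deposited annotation, 3 regions were at a promoter. At Egr2, the region at -636 bp (chr10:67537024-67537326) held IRF8 scores of 6.29 in control and 5.12 after IL-4, the 29.0 and 23.8 percentiles. At Egr3, the region at -652 bp (chr14:70076703-70076884) held an IRF8 peak only after IL-4, with a score of 3.42. At Nr4a1, the region at -893 bp (chr15:101265850-101266056) held a C/EBPα peak only in control, with a score of 4.52. None of these 3 regions held more than 1 factor. By GENCODE starts, 5 regions lay within 1000 bp of a TSS of their gene. Egr2 also had a C/EBPα peak, listed after IL-4 only, at +300 bp, in the 5′ UTR, with a score of 9.71, and Nr4a2 an IRF8 peak of 6.19, also after IL-4 only, in an intron at -1780 bp.

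The next question was whether 1 h of IL-4 altered which sites were listed. Of 22 C/EBPα control peaks, 5 had no overlapping IL-4 peak (control-only), against 21.4% of all C/EBPα control peaks, and 5 of 22 IL-4 peaks had no overlapping control peak (IL-4-only), against 22.0%. Of 36 IRF8 peaks in each list, 9 were control-only, against 21.4%, and 9 IL-4-only, against 30.4%. Of 6 JUNB control peaks 5 were control-only, against 64.2%, and of 2 JUNB IL-4 peaks 1 was IL-4-only, against 39.2%. The C/EBPα and IRF8 counts lay near those of their whole lists, and the JUNB counts rest on a handful of peaks.

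Peaks of 1 condition had low scores, more clearly for C/EBPα than for IRF8. The 5 control-only C/EBPα peaks scored from 4.52 to 9.95 and the 5 IL-4-only from 3.07 to 9.71, against medians of 30.9 and 27.4 at the 17 peaks of each list that were in both conditions. The 9 control-only IRF8 peaks scored from 3.63 to 10.5 and the 9 IL-4-only from 2.53 to 9.32, against medians of 11.8 and 8.67 at the 27 in both conditions, so the ranges came near or passed those medians. No peak of 1 condition at the 7 genes was above the 50.5 percentile of its list. Over all peaks, the median control-only C/EBPα score was 5.62 and that of peaks in both conditions 14.8.

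**Figure D2:**
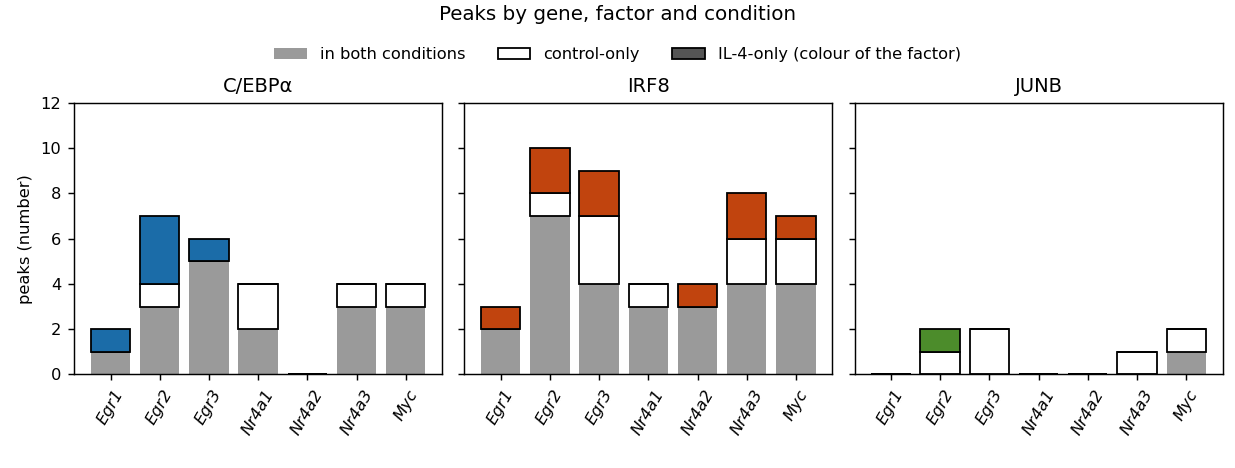
Bars give the number of peaks nearest to each gene (y axis) for each factor, split into peaks in both conditions (grey), control-only (white) and IL-4-only (colour). For C/EBPα, Egr2 shows 3 IL-4-only peaks beside 1 control-only, whereas Nr4a1 shows 2 control-only and none IL-4-only.

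By family, the C/EBPα counts ran in opposite directions, without a test. At the Egr genes 5 of 14 IL-4 peaks were IL-4-only, against 22.0% of the whole list, and 1 of 10 control peaks was control-only, against 21.4%. At the Nr4a genes 0 of 5 were IL-4-only and 3 of 8 control-only. Most of these peaks were weak. With scores of at least 5, the Egr genes kept 2 IL-4-only and 1 control-only peaks, and the Nr4a genes 0 and 1. For IRF8 the counts did not run in opposite directions. At the Egr genes 5 of 18 were IL-4-only and 4 of 17 control-only, and at the Nr4a genes 3 of 13 each. The shares of the whole IRF8 lists were 30.4% and 21.4%. With scores of at least 5, the families differed more for IRF8. The Egr genes then had 6 of 14 IL-4-only and 4 of 12 control-only, and the Nr4a genes 1 of 11 each. Whole-list shares at that limit are not given. Myc had 1 of 4 C/EBPα control peaks control-only, against 21.4%, and 0 of 3 IL-4 peaks IL-4-only, against 22.0%. For IRF8 it had 2 of 6 control-only, against 21.4%, and 1 of 5 IL-4-only, against 30.4%.

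At peaks present in both conditions, the score of IL-4 over control was compared on the log2 scale. C/EBPα had 17 such pairs, with 10 higher and 7 lower after IL-4 and a median of 0.02, against a median of 0.00 over 19111 pairs of the whole lists. At least 2-fold higher were 2 of 17, against 7.72% of all pairs, and at least 2-fold lower 0 of 17, against 6.56%. IRF8 had 27 pairs, 12 higher and 15 lower, with a median of -0.08 against 0.08 over 29110 pairs. Of those 29110 pairs, 55.4% were higher. At least 2-fold higher were 3 of 27, against 11.3%, and at least 2-fold lower 3 of 27, against 7.96%. As a group the 7 genes were therefore close to the rest of the lists.

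**Figure D3:**
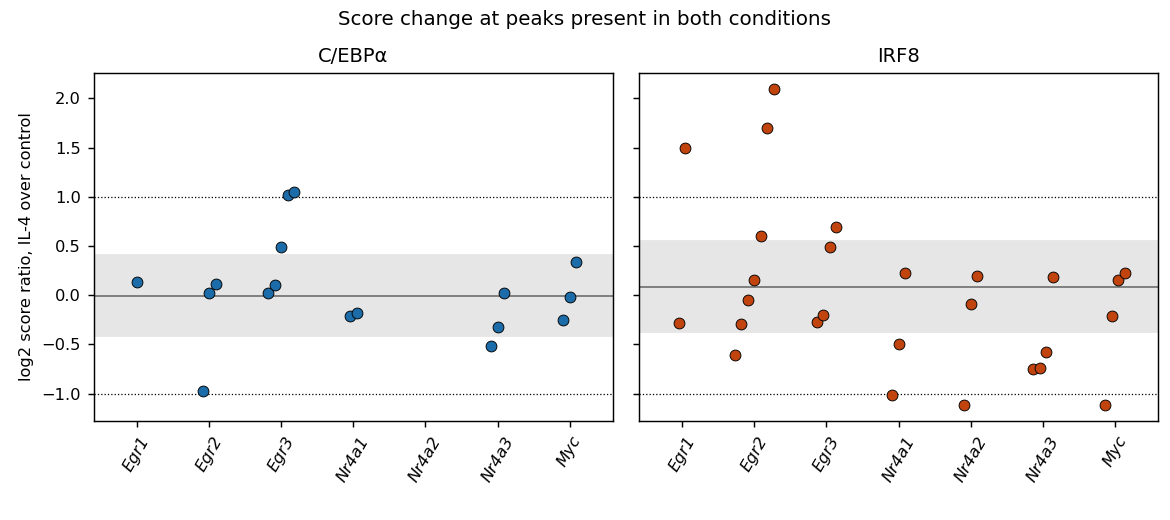
Each point is a peak present in both conditions, placed by gene (x axis) and log2 score ratio of IL-4 over control (y axis). The grey band is the interquartile range over all pairs of that factor, the grey line their median, and the dotted lines mark 2-fold. All 5 Egr3 C/EBPα points lie above 0, and the 3 IRF8 points past 2-fold higher belong to Egr1 and Egr2.

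Within the group, C/EBPα scores were higher after IL-4 at 8 of 9 Egr pairs, with a median of 0.11, and at 1 of 5 Nr4a pairs, with a median of -0.21, against 49.7% of all pairs. By percentile within the list, 6 of 9 Egr pairs and 1 of 5 Nr4a pairs were higher, against 47.0% of all pairs. Egr3, whose product acts together with EGR2 in T cell anergy, was higher by deposited score at 5 of 5 pairs with a median of 0.49. Its strongest pair, 49.3 and 49.9, was lower by percentile, at 90.6 in control and 89.9 after IL-4. For IRF8 the Egr median was 0.15 over 13 pairs, but it became -0.24 when only scores of at least 5 were kept and -0.05 within 100000 bp, so its sign depended on those choices. The IRF8 Nr4a median was -0.54 over 10 pairs, with 3 higher and 7 lower, and was -0.16 within 100000 bp. At the Egr genes 7 of 13 IRF8 pairs were higher. Over all IRF8 pairs 55.4% were higher. Regions of 1 gene share their samples and are not replicates, and the difference between families was not tested.

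The Myc locus held the strongest site of the 7 genes. At +14415 bp (chr15:61999472-62000058, intergenic), IRF8 scored 238 in control and 266 after IL-4, which ranked 45 of 37525 and 22 of 42076. C/EBPα scored 55.3 and 54.8 there, the 92.2 and 91.3 percentiles. JUNB scored 24.96 and 15.74, the 96.7 and 93.0 percentiles. This was the single region of the 56 with JUNB in both conditions, and its 3 factors were all listed in both. The JUNB log2 ratio of -0.67 lay close to the median of -0.54 over the 1406 JUNB pairs. The printed window held 1 ETS-IRF match, 1 STAT-type match and no AP-1 match.

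The neighbouring Myc region at +13579 bp (chr15:61998764-61999081) had the reverse record, with all 3 factors listed in control only. In control it held C/EBPα at 9.71, IRF8 at 7.58 and JUNB at 3.53, the 44.4, 37.3 and 3.59 percentiles. After IL-4 it held no listed peak of any of the 3. It was the only 1 of the 56 regions in which 2 or more factors were listed in 1 condition only. The share of all regions with this pattern is not given, so the count does not show whether it is uncommon. Its printed window carries 1 AP-1 and 1 C/EBP match, and the window centred on the JUNB peak carries 2 AP-1 matches. The absence of a peak means that the site did not pass the caller's limit, not that nothing was bound.

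Upstream, the Myc -1736 region (chr15:61983364-61983798) had the highest C/EBPα score of the 7 genes, 97.4 in control and 123 after IL-4, the 98.0 and 98.9 percentiles. Its IRF8 scores were 7.20 and 6.20, and its window held 2 C/EBP matches. C/EBPα thus led at -1736 and IRF8 at +14415. At -49619 bp IRF8 scored 13.1 in control and 6.04 after IL-4, over 2-fold lower. At +22705 bp IRF8 scored 17.1 and 20.1, with 1 C/EBP and 1 STAT-type match in the window.

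**Figure D4:**
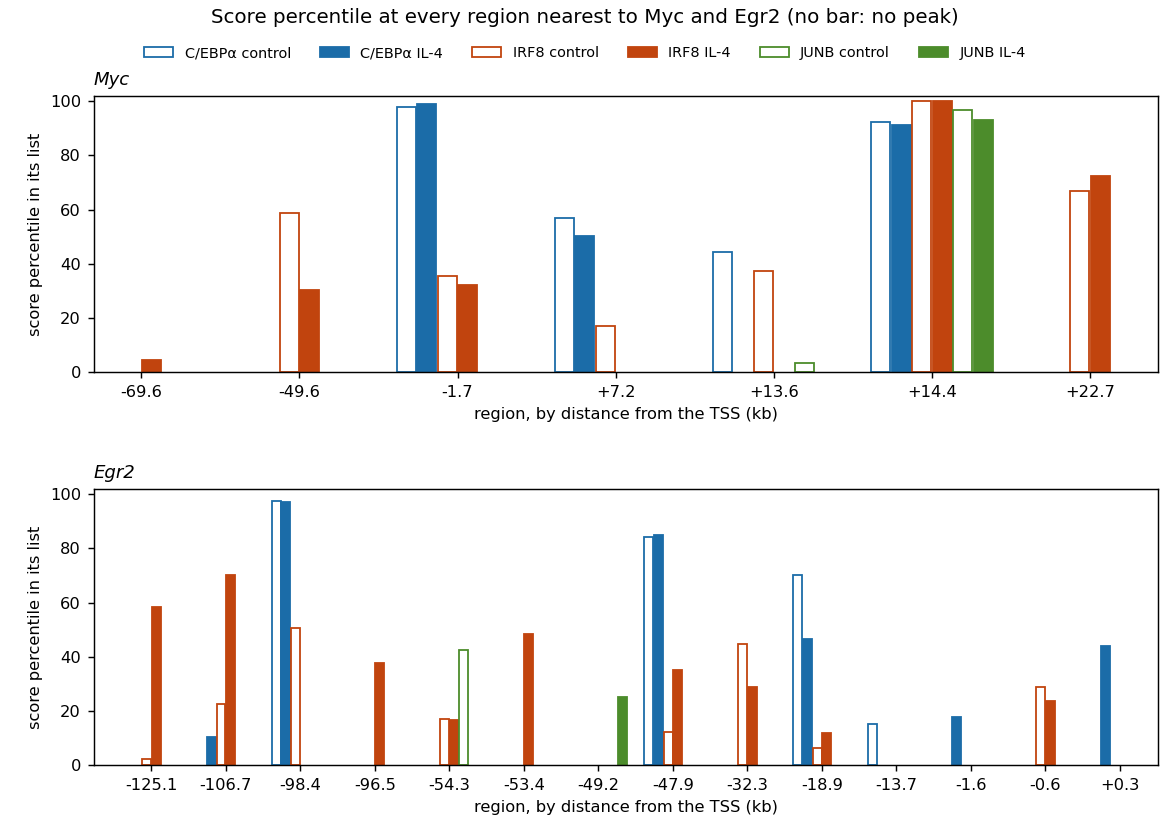
Bars give the score percentile within its list (y axis, 0 to 100) at every region nearest to Myc (top) and Egr2 (bottom), ordered by distance from the TSS in kb (x axis). Open bars are control, filled bars IL-4, and no bar means no peak. All 6 bars are present at Myc +14.4 kb only, and at Myc +13.6 kb all 3 control bars stand without an IL-4 bar.

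Egr3 had 2 regions with all 3 factors, of which 1 is described. At -20104 bp (chr14:70056997-70057775, in a Pebp4 intron), C/EBPα scored 22.4 and 31.4, IRF8 29.3 and 47.2, and JUNB 5.78 in control only. C/EBPα and IRF8 were thus higher there after IL-4, and JUNB was no longer listed. The C/EBPα scores at -23126 bp were 9.01 and 18.2 and at -15101 bp 11.8 and 24.5, the only pairs of the 7 genes at least 2-fold higher for that factor. The highest C/EBPα score of Egr3, at -52541 bp (chr14:70024661-70025073), was 49.3 and 49.9, the 90.6 and 89.9 percentiles.

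Egr2, a factor that in macrophages is known for its part in alternative polarization, had its highest scores far upstream. At -98397 bp (chr10:67439251-67439693) C/EBPα scored 91.8 and 93.2, the 97.6 and 97.2 percentiles, whereas IRF8 scored 10.5 in control and was not listed after IL-4. At -106710 bp (chr10:67430941-67431356, on a Charlie5 DNA repeat) IRF8 scored 5.66 in control and 18.4 after IL-4, the 22.7 and 70.2 percentiles, and C/EBPα 4.49 after IL-4 only. At -125082 bp IRF8 scored 2.85 and 12.2, the 2.30 and 58.3 percentiles, and its control peak lay on a simple repeat. Both of these IRF8 pairs were over 2-fold higher, that at -125082 bp from a control score near the bottom of its list. At -47865 bp C/EBPα scored 34.9 and 37.7. At -18890 bp C/EBPα scored 20.2 and 10.3, the single lower Egr pair for that factor.

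JUNB at Egr2 was listed at different places in the 2 conditions. In control it scored 6.93 at -54335 bp (chr10:67483454-67483807), where IRF8 scored 4.72 and 4.56. After IL-4 it scored 4.24 at -49244 bp (chr10:67488537-67488714), where no other factor was listed in either condition. The JUNB windows held 2 and 1 AP-1 matches.

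Egr1, the best known of the growth-factor-induced EGR genes, had 4 regions on chromosome 18. The region at -4792 bp had C/EBPα scores of 32.6 and 35.8 and IRF8 scores of 19.5 and 16.1. At -9358 bp IRF8 scored 3.07 in control and 8.67 after IL-4, the 3.07 and 45.9 percentiles. The regions at +22212 and +24908 bp each held 1 weak peak after IL-4 only, IRF8 at 4.72 and C/EBPα at 3.07. No JUNB peak was nearest to Egr1.

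At Nr4a1 (Nur77), the region at -13980 bp (chr15:101252482-101253069, on an RMER15 LTR element) led for both factors. IRF8 scored 51.2 and 36.3, the 89.4 and 84.7 percentiles, and C/EBPα 31.0 and 27.4, the 81.4 and 77.6 percentiles. At -3991 bp IRF8 scored 17.0 and 8.42, over 2-fold lower, and C/EBPα 19.1 and 16.5. At -7622 bp IRF8 scored 15.0 and 17.5, the single Nr4a1 pair higher after IL-4.

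Nr4a3 (Nor1) had its leading site at -218093 bp (chr4:47832997-47833307), with C/EBPα at 30.9 and 24.7 and IRF8 at 21.03 and 12.46. Its JUNB peak, 5.73 in control only, lay at -212580 bp (chr4:47838464-47838788), where IRF8 scored 11.9 and 7.13. Both distant sites thus had lower scores after IL-4. Nr4a2 (Nurr1) had 3 regions between +802595 and +819996 bp, of which the leading one at +809907 bp (chr2:56304919-56305343, on an Lx3C LINE element) had IRF8 at 37.5 and 35.3. At +819996 bp IRF8 scored 11.3 and 5.23. These are the nearest peaks by annotation, and their distance leaves their target unmeasured.

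All 3 factors, in any condition, were listed at 4 of 56 regions, against 5.56% of all regions, and C/EBPα with IRF8 at 17 of 56, against 30.7%. IRF8 alone held 26 regions, 46.4% against 49.7% of all regions, C/EBPα alone 10, 17.9% against 17.3%, and JUNB alone 1, 1.79% against 0.746%. JUNB was listed at 7 regions, 12.5% against 7.90%, and the 4 with all 3 factors were 2 at Egr3 and 2 at Myc. When each JUNB list was limited to its 2325 highest scores, 1 control-only JUNB peak and 1 region with all 3 factors remained among the 7 genes, so these counts depended on the length of the control list.

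Motif letters were counted in 200 bp windows at the 56 regions. The shares were above those of all regions for interferon-type letters (13 regions, 23.2% against 13.5%), PU.1 (17, 30.4% against 23.4%) and C/EBP (13, 23.2% against 18.7%). They were below for ETS-IRF (4, 7.14% against 16.7%) and STAT-type (4, 7.14% against 14.5%), and near for AP-1 (7, 12.5% against 14.3%). In 400 bp windows ETS-IRF letters were in 9 regions and STAT-type in 12, with no share over all regions given. The lower shares of regions are therefore shown for 200 bp windows only. By list, 400 bp windows held STAT-type letters at 7 of 22 C/EBPα control peaks, against 23.8%, and 7 of 22 IL-4 peaks, against 28.7%. For IRF8 they were at 7 of 36 control peaks, against 23.5%, and 12 of 36 IL-4 peaks, against 26.45%. The STAT-type difference thus depended on the window and the list. The 4 ETS-IRF regions were Egr1 +22212, Nr4a1 -13980, Myc -49619 and Myc +14415, which include the highest IRF8 score of both Nr4a1 and Myc. The C/EBP letters were present in 8 of 22 C/EBPα control windows, against 34.3% of all C/EBPα control windows. After IL-4 they were in 6 of 22, against 33.35%. PU.1 letters were in 8 of 22 C/EBPα windows in each condition, against 21.8% in control and 20.8% after IL-4. In IRF8 windows PU.1 letters were in 10 of 36 in control, against 27.6%, and 8 of 36 after IL-4, against 25.7%. The AP-1 letters were present in 3 of 6 JUNB control windows, against 55.3%, and 1 of 2 JUNB IL-4 windows, against 50.3%. A match describes the letters in the window and shows no binding.

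Other early genes give the setting. Of 19 further immediate-early genes, among them members of the Fos, Jun and Klf families, 19 had a peak. C/EBPα went from 114 to 126 peaks there. Of these, 18 of 114 were control-only, against 21.4% of the whole list, and 30 of 126 IL-4-only, against 22.0%. IRF8 went from 152 to 181, with 24 of 152 control-only, against 21.4%, and 51 of 181 IL-4-only, against 30.4%. JUNB went from 24 to 17, with 14 of 24 control-only, against 64.2%, and 7 of 17 IL-4-only, against 39.2%. Median log2 score ratios at these genes were 0.04 for C/EBPα over 96 pairs, 0.16 for IRF8 over 128 and -0.27 for JUNB over 10. Regions with all 3 factors numbered 24 of 253, against 5.56% of all regions. Egr4, Nab1 and Nab2 had 9 regions, the 9 MYC relatives and partners 40, and the 3 NR4A partners of the RXR family 12, with no JUNB peak at any.

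The genes whose peak numbers over the 6 lists were most like those of a member were found by Euclidean distance of log2(count + 1), for the 5 members with at least 10 peaks. For Egr2 they were Tax1bp1 at 0.15, Slamf7 at 0.30 and Gclc at 0.31. For Egr3 they were Gm8884, Cuedc1 and Gphb5, the last tied with 1 other gene. For Nr4a1, Cxcr5 and Sdr16c6 had the same 6 numbers (4, 2, 4, 3, 0 and 0), and Adap1, tied with 1 other gene, followed at 0.26. For Nr4a3 they were Csnk1g3, 2310008H04Rik and Pde3b. For Myc they were Pxk, Gsg1l and Csgalnact2, the last tied with 1 other gene.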

How the data were processed

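ChIP-seq of C/EBPα, IRF8 and JUNB in control and IL-4 BMDMs gave 6 deposited peak lists, 1 sample each. Per the study's methods and processing notes, the authors aligned reads with BWA (0.7.10) to mm10, called peaks per sample with MACS2 (2.0.10, q-value limit 0.01), and annotated them with HOMER (4.2). SAMtools 0.1.19 is also listed. No unit is given for the deposited score. It was treated as a caller score that rises with depth, and depth is unknown, so percentiles within each list are given too. Distances to the TSS are as deposited. Peaks were matched between conditions by an overlap of at least 1 bp, and pairs one-to-one by the largest overlap. Regions are merged overlapping peaks of all 6 lists. Analyses used Python 3.11.15, pandas 2.3.3 and pysam 0.24.0, and were tested on simulated data. Gene symbols for host transcripts came from RefSeq, and gene bodies from GENCODE. Named regions were those with a promoter annotation, a JUNB peak, a change in 2 or more factors, or the highest percentile of a gene and factor, and further regions are named by their score change, chosen after the values were seen. The genes and lists were chosen with earlier results of these data known. With 1 sample per group no test was made. 1 Egr3 region is not reported individually here.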

Additional observations from a re-analysis of the deposited data

How the results depend on the processing

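Without replicates no sample could be left out, and no paired analysis was possible because each group is 1 sample. Depth is unknown and limits every absence of a peak. Requiring 50% overlap put the IRF8 median log2 score change at -0.14 for all members and 0.22 for the Egr genes. Keeping scores of at least 5 left 3 control-only and 2 IL-4-only C/EBPα peaks and 0 IL-4-only JUNB peaks, with IRF8 medians of -0.24 for all members and, reversed, -0.24 for Egr. Using equal numbers of top scores left 1 control-only JUNB peak and 1 region with all 3 factors. Within 100000 bp, the IRF8 medians were -0.050 for Egr, reversed, and -0.16 for Nr4a. Counting every peak within 100000 bp of a member TSS, whatever its nearest gene, gave 11 control-only and 14 IL-4-only C/EBPα peaks, 14 and 19 for IRF8 and 4 IL-4-only for JUNB. Dividing scores by the list median gave IRF8 medians of 0.021 for all members, reversed, 0.26 for Egr and -0.43 for Nr4a, and -0.32 for the JUNB pair. As differences in percentile points, the C/EBPα medians were -0.42 for all members, reversed, 0.79 for Egr and -5.08 for Nr4a, those of IRF8 -0.62, 3.72 and -9.06, and that of JUNB -3.74. In 400 bp windows AP-1 letters were in 11 regions, ETS-IRF in 9 and STAT-type in 12, with no share over all regions given. In the other 56 comparisons, counts stayed within 1.5 times their main value and medians kept their sign, and the cause of the reversals was not tested.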
